A study of Sus scrofa with 8 samples.

Results

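Genes that mark T cells, natural killer (NK) cells and B cells were followed through RNA-seq libraries of pig heart. Of 51 symbols of such genes, 45 are gene names in the expression table. They take 46 of its 18975 rows, since KLRB1 is listed under 2 gene IDs. The symbols CD7, EOMES, CD28, CD247, IL2RB and KLRD1 are not among the gene names. CD247, CD28 and IL2RB were found by gene ID under other names or none, and their values are given apart from the counts. The hearts came from male pigs aged 6 months, either Tibetan pigs kept in the highlands (TH) or the lowlands (TL) or Yorkshire pigs kept in the highlands (YH) or the lowlands (YL). Each group had 2 libraries, numbered 1 and 2, and each library held RNA pooled from 4 pigs, so p-values measure the spread between pools and not between animals. No genetic change or drug is given for any group, and breed and altitude of rearing are the factors of the design. According to the paper the highland pigs were raised in Linzhi and the lowland pigs in Beijing, so altitude cannot be told apart from site.

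T cells recognise antigen through the T cell receptor, whose CD3 chains pass the signal to the kinases LCK and ZAP70 and the adaptor LAT. Cytotoxic T cells and NK cells store granzymes, perforin and granulysin in granules that are released onto target cells, and B cells carry their own antigen receptor with the signaling chains CD79A and CD79B. Heart muscle holds few resident lymphocytes, and blood left in the vessels adds others. In RNA of whole tissue, fewer cells of a type and less RNA per cell cannot be told apart.

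About 15687000 (TH2) to 26723000 (TH1) reads per library fell on genes, with a median of 19648000. Values are given in FPKM, a level scaled to the length of the transcript and to the fragments mapped in the library, so that genes of different length can be compared. Markers of cardiac muscle summed to 13414 to 36024 FPKM in the 8 libraries, so the muscle genes of the labelled tissue were present in each. The library YL2 stood apart: markers of kidney summed to 9315 FPKM in it and to 3.36 to 20.1 FPKM in the other 7 libraries. The medians of the tested lymphocyte genes in comparisons with YL are therefore also given without YL2. Other results with YL include YL2 unless a value without it is given. FPKM sums ranged from 1563940 (YL2) to 8559104 (TH1), so scaling by the sum changes levels.

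Lymphocyte genes were at low levels in all hearts. Only 22 of the 46 rows reached 1 FPKM in at least 2 libraries, the minimum for a test, and the other 24 did not. Of the 22, KLRB1, NKG7, LAT, GNLY and IL2RG were at 1 FPKM or more in all 8 libraries. ZAP70, CD3D and CD3G passed only through the YH libraries and therefore had to be high there. Summed over all 46 rows, the lymphocyte genes reached 28.2 and 23.6 FPKM in TH1 and TH2, 42.9 and 60.9 in TL1 and TL2, 93.8 and 102 in YH1 and YH2 and 59.1 and 52.2 in YL1 and YL2. The YH libraries were the highest and the TH libraries the lowest, and the lowland groups lay between them and overlapped each other.

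**Figure D1:**
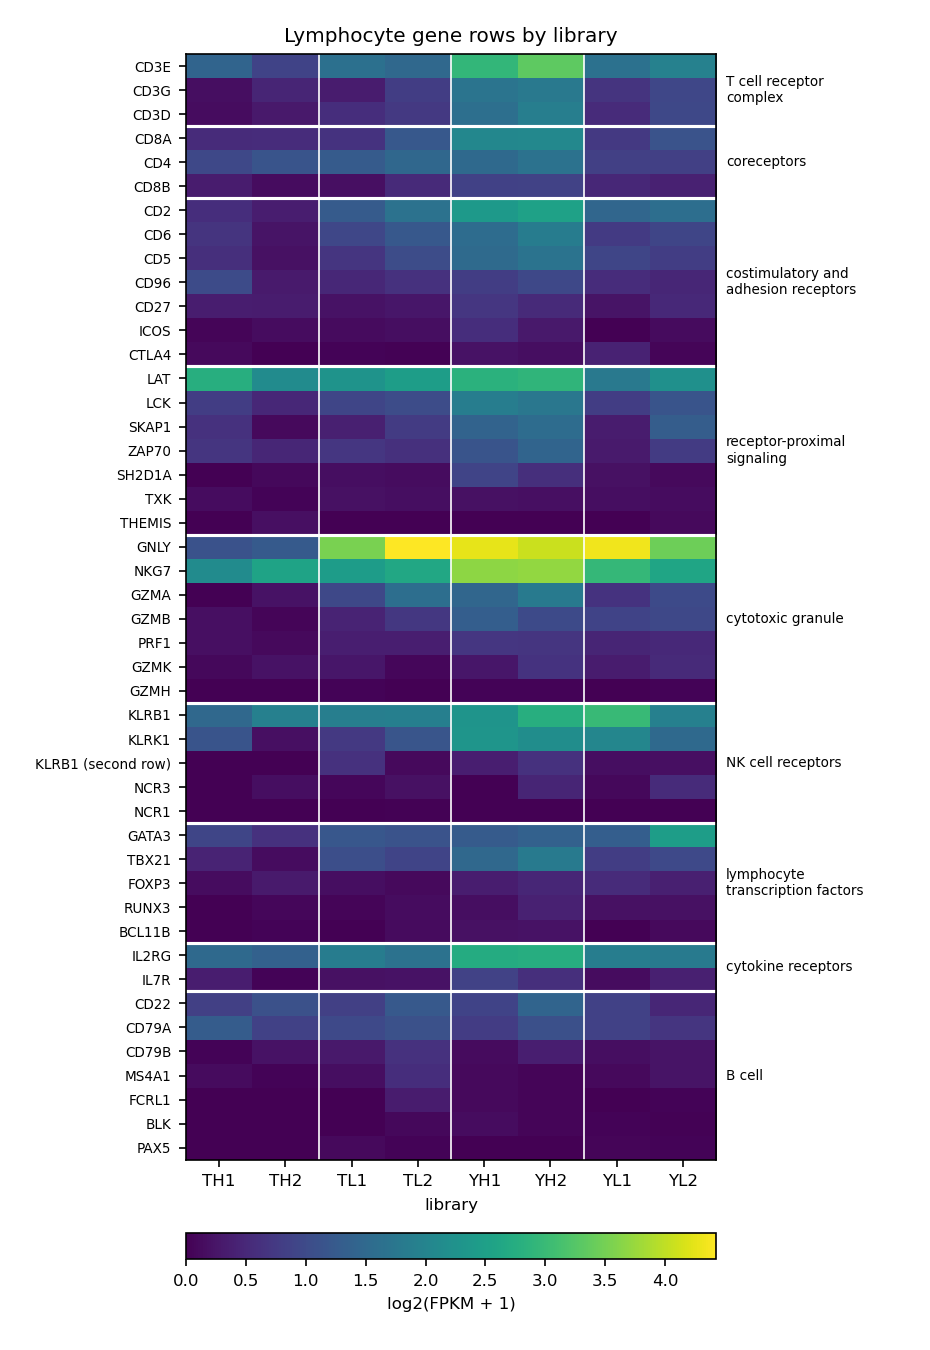
Heat map of the 46 rows of lymphocyte genes (vertical, grouped by role) in the 8 libraries (horizontal), coloured by log2(FPKM + 1). The YH columns are the brightest in most roles outside the B cell genes, and GNLY is darkest in TH1 and TH2.

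YH was the group with the highest mean for 35 of the 46 rows (76.1%), against 23% of the 18975 rows of the table. TH alone had the lowest mean for 32 (69.6%), against 27.4% of all rows, and tied at 0 for PAX5 and NCR1. Both YH libraries lay above all 6 others for 16 of the 22 tested genes (72.7%), against 822 of all 11913 genes tested (6.90%). Both TH libraries lay below all 6 others for 12 of the 22 (54.5%), against 960 of all genes tested (8.06%). The 16 include ZAP70, CD3D and CD3G. Without genes that passed the minimum through YH alone, both YH libraries lay above the others for 13 of 19 lymphocyte genes (68.4%), against 6.52% of all genes. These counts describe the libraries and are no test of the list.

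Differences were tested with limma on log2(FPKM + 1), on which scale a difference understates the fold of a gene at a few FPKM or less. A gene was called at a Benjamini-Hochberg adjusted p under 0.01 and a log2 difference over 1 in size. No lymphocyte gene was called by limma in any comparison, that is 0 of 22 against 0.0336% of all genes for TH vs. YH, 0.00839% for TL vs. YL, 0.0504% for TH vs. TL and 0% for YH vs. YL. An exact permutation test of 2 libraries against 2 cannot go below a two-sided p of 0.333, so each p given here depends on the variances that limma moderates over all genes. At the looser unadjusted p under 0.05, 17 of the 22 genes (77.3%) were lower in TH than in YH, against 8.47% of all genes. Without the genes that passed through YH alone, this was 14 of 19 (73.7%) against 8.18%. Between TL and YL, 1 of 22 genes (4.55%) passed this level in either direction, against 8.94% of all genes.

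In TH vs. YH, 21 of the 22 tested genes were lower in TH, with a median log2 difference of -1.28 against -0.03 over all genes tested. The libraries of the groups did not overlap for 20 of the 22 (90.9%), against 27.3% of all genes lower in TH. Without the genes that passed through YH alone, 18 of 19 were lower in TH, with a median of -1.27. For 17 of the 19 (89.5%) the libraries did not overlap, against 27% of all genes. In TL vs. YL, 10 genes were higher and 12 lower in TL, with a median of -0.01 against 0.02 over all genes. There the libraries lay apart with TL lower for 4 of 22 genes (18.2%), against 17.8% of all genes. Without YL2 the median of TL vs. YL was 0.14. Scaling the libraries to equal FPKM sums moved the median of all genes in TH vs. YH to -0.50 and that of the lymphocyte genes to -0.87, with 16 of 22 genes lower at an unadjusted p under 0.05 against 6.65% of all genes.

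**Figure D2:**
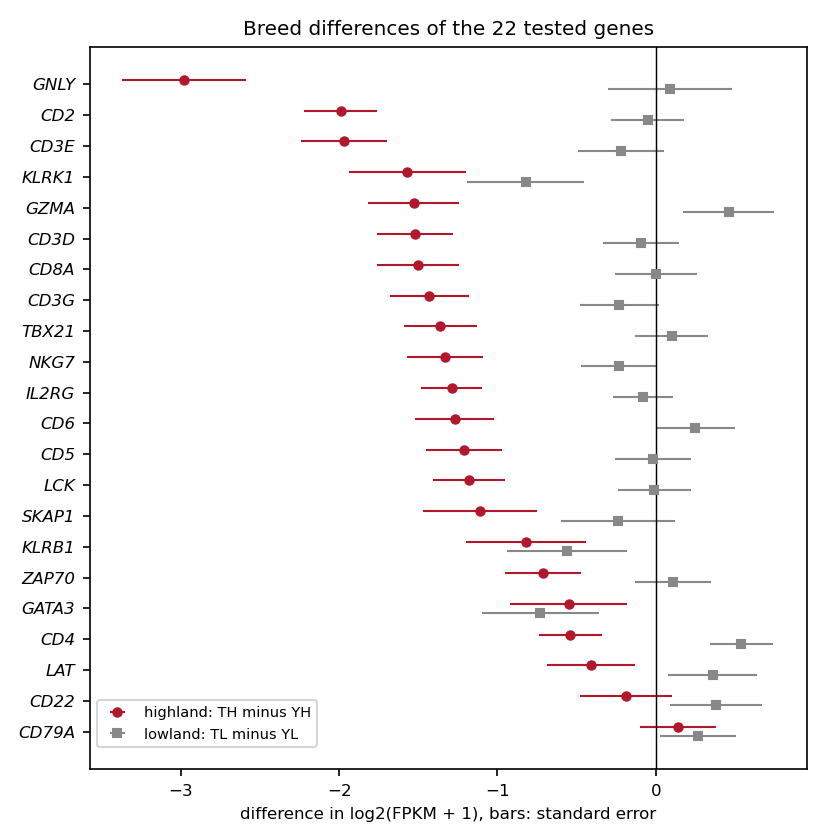
Breed differences of the 22 tested genes on the log2(FPKM + 1) scale (horizontal axis, points with standard errors from limma), for TH minus YH (red circles) and TL minus YL (grey squares), ordered by the former. The highland differences run from -2.98 (GNLY) to 0.14 (CD79A), and the lowland differences from -0.82 (KLRK1) to 0.54 (CD4).

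The CD3 chains form the signaling part of the T cell receptor. CD3E (chromosome 9, 50660809 to 50675098 in Sscrofa10.2, the build of the files) was at 1.69 and 0.858 FPKM in TH1 and TH2, 2.11 and 1.83 in TL1 and TL2, 6.60 and 9.08 in YH1 and YH2 and 2.13 and 2.84 in YL1 and YL2. Both YH libraries lay far above the rest, and both TH libraries lay below all others. The mean of YH was 6.16 times that of TH, with a log2 difference of -1.97 for TH vs. YH (standard error 0.27, limma adjusted p = 0.0584).

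CD3D was at 0.108 and 0.240 FPKM in TH1 and TH2, 0.498 and 0.665 in TL1 and TL2, 2.05 and 2.70 in YH1 and YH2 and 0.466 and 0.935 in YL1 and YL2. The groups TH and YH were at the 2 ends and the lowland groups overlapped each other. In TH these values rested on 3 and 6 reads, and the log2 difference for TH vs. YH was -1.52 (standard error 0.24, limma adjusted p = 0.0697).

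CD3G was at 0.118 and 0.378 FPKM in TH1 and TH2 and 2.25 and 2.45 in YH1 and YH2, with 0.261 and 0.741 in TL and 0.580 and 0.922 in YL. In TH the values rested on 2 and 6 reads. Only YH stood apart here, since TH overlapped TL (log2 difference for TH vs. YH -1.43, standard error 0.25, limma adjusted p = 0.0897). The 3 genes are neighbours on chromosome 9, between 50660809 and 50696073. The zeta chain CD247, found by its ID, was at 0.550 and 1.04 FPKM in TH1 and TH2 and 3.29 and 2.34 in YH1 and YH2 (log2 difference -1.09, limma adjusted p = 0.198).

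**Figure D3:**
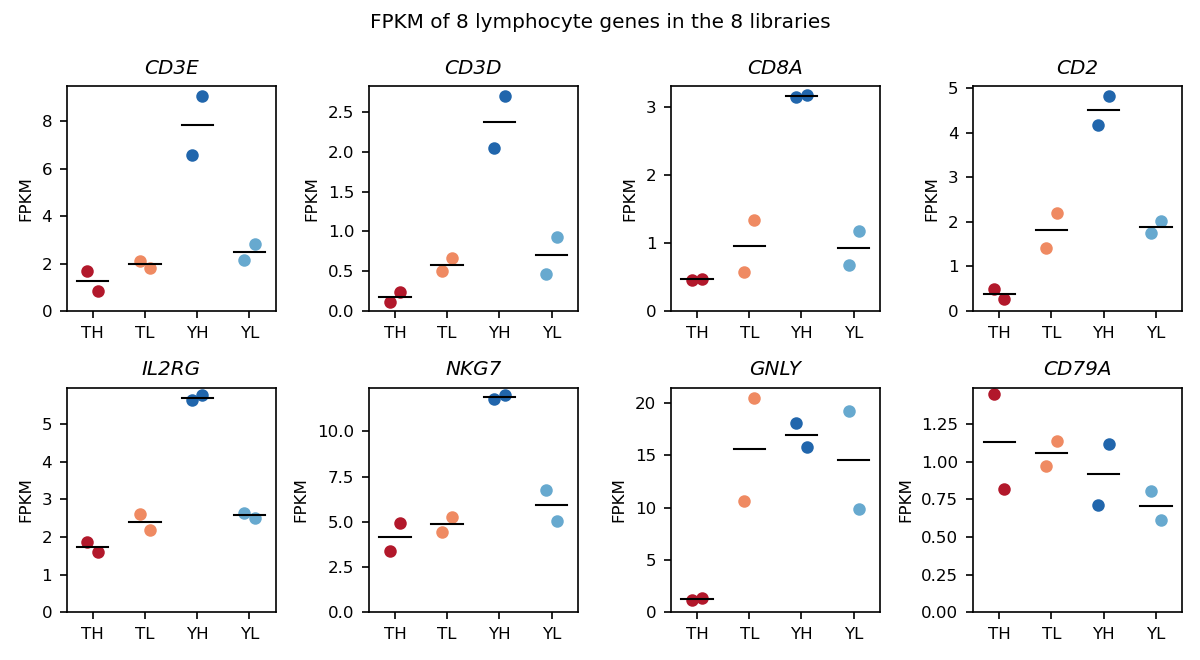
FPKM (vertical axes, from 0) of CD3E, CD3D, CD8A, CD2, IL2RG, NKG7, GNLY and CD79A in the libraries of TH, TL, YH and YL, each point 1 library and each line a group mean. Both YH libraries lie above all others in every panel but those of GNLY and CD79A, and GNLY is low only in TH (1.17 and 1.39 FPKM).

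The coreceptors CD8 and CD4 bind the class I and class II molecules that present antigen. CD8A was at 0.457 and 0.476 FPKM in TH1 and TH2, 0.568 and 1.33 in TL1 and TL2, 3.15 and 3.17 in YH1 and YH2 and 0.674 and 1.18 in YL1 and YL2. YH lay above and TH below every other library, with a log2 difference of -1.5 (standard error 0.26, limma adjusted p = 0.0879). CD8B, under the minimum for a test and named after its values were seen, was at 0.820 and 0.842 FPKM in YH and at most 0.442 elsewhere.

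CD4 followed another order. It was at 0.947 and 1.22 FPKM in TH1 and TH2, 1.42 and 1.77 in TL1 and TL2, 1.86 and 2.19 in YH1 and YH2 and 0.781 and 0.789 in YL1 and YL2, so that YL was its lowest group. Its difference between TL and YL, 0.54 (95% confidence interval 0.06 to 1.02, limma adjusted p = 0.497), was the only one of the 22 at an unadjusted p under 0.05 in that comparison (0.0336). Without YL2 the size of the difference was also 0.54, which is given as a size and not as a test. The ratio of CD8A to CD4 was 1.69 and 1.45 in YH, 0.483 and 0.390 in TH, 0.399 and 0.753 in TL and 0.862 and 1.5 in YL.

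Among the costimulatory and adhesion receptors, CD2, which binds CD58 on partner cells, had the lowest adjusted p of all lymphocyte genes. It was at 0.491 and 0.276 FPKM in TH1 and TH2, 1.42 and 2.19 in TL1 and TL2, 4.18 and 4.82 in YH1 and YH2 and 1.74 and 2.02 in YL1 and YL2. TH lay below and YH above all others, and TL overlapped YL. The log2 difference for TH vs. YH was -1.99 (standard error 0.23, limma adjusted p = 0.0392), and the adjusted p ranged from 0.0189 to 0.253 over the alternatives. At a limma adjusted p under 0.05, CD2 was the only lymphocyte gene in TH vs. YH, against 0.260% of all genes. Leaving out TH1, TL1, TL2, YH1 or YH2 gave 0 genes at this level, and with the replicate number as a block the adjusted p of CD2 was 0.0737. Leaving out YL1 or YL2, which are in neither group, gave CD2, CD3D, CD3E, CD8A, GNLY and IL2RG, against 1.31% and 1.32% of all genes. Leaving out TH2 also gave 6 genes, against 4.21%. CD6 was at 0.579 and 0.180 FPKM in TH1 and TH2, 0.917 and 1.34 in TL1 and TL2, 1.97 and 2.64 in YH1 and YH2 and 0.675 and 0.902 in YL1 and YL2. TH lay below and YH above the other libraries (log2 difference -1.27, standard error 0.25, limma adjusted p = 0.105). CD5 and CD6 are listed at the same position, chromosome 2, 10240960 to 10329777, so their reads may not be independent. CD96, CD27, ICOS and CTLA4, and CD28 found by its ID, did not reach the minimum, and CD96, named after its values were seen, was highest in TH1 (1.01 FPKM).

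Of the signaling proteins next to the receptor, the kinase LCK was at 0.748 and 0.405 FPKM in TH1 and TH2, 0.895 and 1.05 in TL1 and TL2, 2.69 and 2.39 in YH1 and YH2 and 0.753 and 1.23 in YL1 and YL2. YH lay above and TH, by a narrow margin, below the other libraries (log2 difference for TH vs. YH -1.18, standard error 0.23, limma adjusted p = 0.103). The adaptor LAT, which also serves in mast cells and platelets, was at 5.84 and 3.37 FPKM in TH1 and TH2, 3.86 and 4.49 in TL1 and TL2, 6.07 and 6.44 in YH1 and YH2 and 2.47 and 3.66 in YL1 and YL2. It was the most abundant gene of this role, and TH1 was close to the YH libraries (log2 difference -0.41, standard error 0.28, limma adjusted p = 0.497). SKAP1 and ZAP70, named after their values were seen, were lower in TH by 1.11 and 0.71 on the log2 scale without passing the threshold. SH2D1A, TXK and THEMIS were not tested, and THEMIS had at most 1 read in any library.

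The cytotoxic granule genes held the most abundant lymphocyte gene. GNLY encodes granulysin, known in pigs as NK-lysin, a peptide that damages membranes (chromosome 3, 61952961 to 61957608). It was at 1.17 and 1.39 FPKM in TH1 and TH2, 10.6 and 20.5 in TL1 and TL2, 18.1 and 15.8 in YH1 and YH2 and 19.2 and 9.86 in YL1 and YL2. TH was low in both libraries, on 11 and 12 reads against 111 to 250 elsewhere, and the other 3 groups overlapped. The mean of TL was 12.1 times and that of YH 13.2 times that of TH, with log2 differences of -2.79 for TH vs. TL (standard error 0.39, limma adjusted p = 0.0914) and -2.98 for TH vs. YH (standard error 0.39, limma adjusted p = 0.0520). These 2 comparisons share the TH libraries.

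NKG7, a membrane protein of the granules, was at 3.38 and 4.96 FPKM in TH1 and TH2, 4.46 and 5.30 in TL1 and TL2, 11.8 and 12 in YH1 and YH2 and 6.76 and 5.07 in YL1 and YL2. Here YH stood alone and TH overlapped TL (log2 difference for TH vs. YH -1.33, standard error 0.24, limma adjusted p = 0.0942). The ratio of GNLY to NKG7 was 0.347 and 0.281 in TH and 1.32 to 3.86 in the other 6 libraries. The protease gene GZMA was listed at 0 and at 0.156 FPKM in TH, on 0 and 2 reads, at 0.953 and 2.03 in TL1 and TL2, 1.75 and 2.49 in YH1 and YH2 and 0.565 and 0.991 in YL1 and YL2. TH lay below all other libraries (log2 difference for TH vs. YH -1.53, standard error 0.29, limma adjusted p = 0.0983). GZMB and PRF1 (perforin), under the minimum and named after their values were seen, also had both TH libraries below the other 6, at 0.136 and 0.0471 FPKM for GZMB and 0.134 and 0.0834 for PRF1. GZMK and GZMH had at most 9 reads per library.

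Among the NK cell receptors, KLRB1 and KLRK1 (the activating receptor NKG2D) were tested. KLRB1 was at 1.82 and 2.82 FPKM in TH1 and TH2, 2.70 and 2.74 in TL1 and TL2, 3.88 and 5.86 in YH1 and YH2 and 6.88 and 2.82 in YL1 and YL2, with YL1 as its highest library (log2 difference for TH vs. YH -0.82, standard error 0.38, limma adjusted p = 0.349). KLRK1 was at 1.22 and 0.129 FPKM in TH1 and TH2, 0.670 and 1.25 in TL1 and TL2, 3.93 and 3.48 in YH1 and YH2 and 3.10 and 1.84 in YL1 and YL2. Both Yorkshire groups lay above both Tibetan groups for KLRK1, and TH2 held 1 read (log2 differences -1.57 for TH vs. YH and -0.82 for TL vs. YL, limma adjusted p = 0.148 and 0.605), and without YL2 the latter difference was -1.08. NCR1, a receptor found on NK cells, had 1 read in all 8 libraries together. The second KLRB1 row had at most 6 reads per library, and reads of such near copies may be split between the rows.

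The transcription factor TBX21 (T-bet), which directs T helper 1 and NK cell programs, was at 0.358 and 0.113 FPKM in TH1 and TH2, 1.09 and 0.887 in TL1 and TL2, 1.82 and 2.53 in YH1 and YH2 and 0.738 and 0.969 in YL1 and YL2. TH and YH were again at the ends (log2 difference -1.36, standard error 0.23, limma adjusted p = 0.0805). GATA3, which is active in T helper 2 cells and in the kidney, was at 4.51 FPKM in YL2, the library with the kidney markers, and at 0.540 to 1.60 in the 7 other libraries. Without YL2, its TL vs. YL difference was -0.16 in place of -0.73. FOXP3, RUNX3 and BCL11B were under the minimum.

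Of the cytokine receptors, IL2RG, the gamma chain shared by several interleukin receptors, was at 1.87 and 1.60 FPKM in TH1 and TH2, 2.61 and 2.18 in TL1 and TL2, 5.63 and 5.76 in YH1 and YH2 and 2.65 and 2.50 in YL1 and YL2. The spread within groups was small, YH was highest and TH lowest (log2 difference for TH vs. YH -1.29, standard error 0.19, limma adjusted p = 0.0661). IL7R, which keeps naive T cells alive, was at 0.285 and 0.0347 FPKM in TH1 and TH2, 0.143 and 0.158 in TL1 and TL2, 0.821 and 0.511 in YH1 and YH2 and 0.111 and 0.306 in YL1 and YL2. YH was highest, at levels too low for a test. IL2RB, found by its ID, was at 5.30 and 4.82 FPKM in TH1 and TH2 and 9.80 and 7.97 in YH1 and YH2 (log2 difference -0.70, limma adjusted p = 0.377).

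Both tested B cell genes overlapped between TH and YH. CD79A, a signaling chain of the B cell receptor, was at 1.45 and 0.817 FPKM in TH1 and TH2, 0.971 and 1.14 in TL1 and TL2, 0.715 and 1.12 in YH1 and YH2 and 0.808 and 0.610 in YL1 and YL2, with TH1 as the highest library. Its log2 difference for TH vs. YH was 0.14 (95% confidence interval -0.43 to 0.72, limma adjusted p = 0.794). CD22, an inhibitory receptor of B cells, was at 0.798 and 1.14 FPKM in TH1 and TH2 and 0.856 and 1.69 in YH1 and YH2, with 0.786 and 1.36 in TL1 and TL2 and 0.804 and 0.387 in YL1 and YL2 (log2 difference for TH vs. YH -0.19, 95% confidence interval -0.87 to 0.49, limma adjusted p = 0.770). CD79B, MS4A1 (CD20), BLK, PAX5 and FCRL1 did not reach the minimum, and, as seen from their values, TL2 was the highest library for CD79B (0.550 FPKM), MS4A1 (0.495) and FCRL1 (0.266). The 7 B cell genes summed to 1.42 to 3.91 FPKM per library. Whether these genes differ from the T and NK cell genes in their differences was not tested.

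Altitude was compared within each breed. In Tibetan pigs, 20 of 22 genes were lower in TH than in TL, with a median log2 difference of -0.32 against -0.02 over all genes, and 13 (59.1%) did not overlap with TH lower, against 24.5% of all genes. At an unadjusted p under 0.05, 5 of 22 (22.7%) were lower in TH against 5.53% of all genes. They were GNLY, CD2 (-1.01, limma adjusted p = 0.221), GZMA (-1.18, limma adjusted p = 0.248), TBX21 (-0.69, limma adjusted p = 0.328) and CD6 (-0.63, limma adjusted p = 0.409). After scaling to equal FPKM sums the median of TH vs. TL was -0.26 against -0.27 over all genes, and 1 of 22 genes was lower at an unadjusted p under 0.05 against 1.81%. In Yorkshire pigs the order was the other way round. Of the 22 genes, 21 were higher in YH than in YL, with a median of 0.79 against 0.03, and 15 (68.2%) were higher at an unadjusted p under 0.05 against 4.39% of all genes. Without the genes that passed through YH alone, these were 12 of 19 (63.2%) against 4.12%.

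The YH and YL libraries did not overlap for 18 genes with YH higher (81.8%), against 21.9% of all genes. Without the genes that passed through YH alone, these were 15 of 19 (78.9%) against 21.6%. The largest difference among the 18 was that of CD3E (1.34, standard error 0.27, limma adjusted p = 0.582), followed by CD8A (1.12, limma adjusted p = 0.645). Without YL2 the median was 0.92 and 15 genes were higher at an unadjusted p under 0.05, against 3.41% of all genes. Without YH2 this count was 8 against 1.46%, and after scaling to equal FPKM sums it was 0 against 0.772%. Among the smallest differences, GNLY was at 0.28 for YH vs. YL (95% confidence interval -0.65 to 1.20) and at -0.17 without YL2. CD79A was at 0.16 (-0.41 to 0.74) and at 0.08 without YL2. KLRB1 was at 0.08 (-0.82 to 0.98) and at -0.44 without YL2. The intervals of GNLY and KLRB1 include the median of 0.79. CD3E and CD8A were at 1.48 and 1.31 without YL2.

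**Figure D4:**
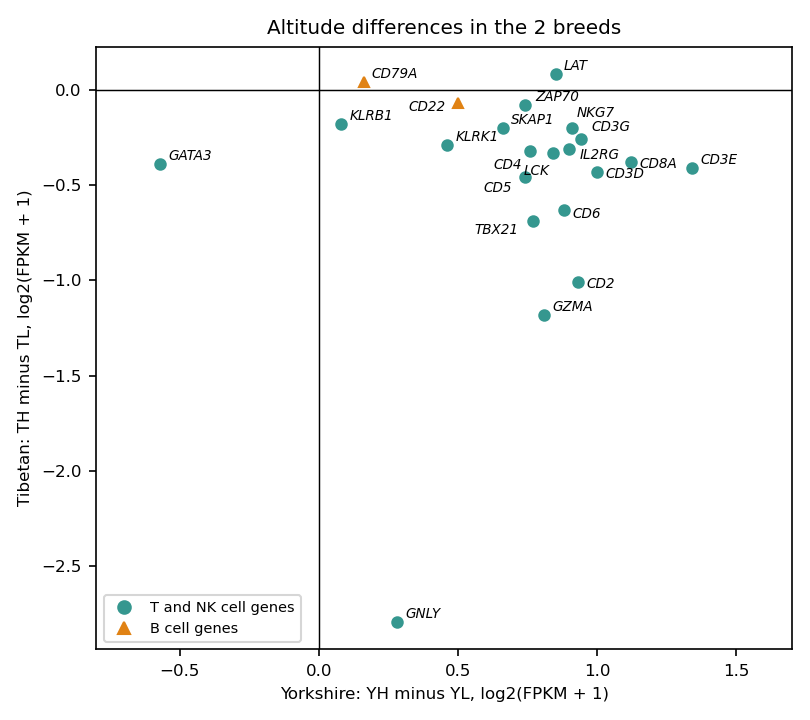
Altitude difference of each tested gene in Yorkshire pigs (YH minus YL, horizontal) and in Tibetan pigs (TH minus TL, vertical), both on the log2(FPKM + 1) scale, with T and NK cell genes as circles and B cell genes as triangles. Most circles lie to the right of 0 and below 0, GNLY lies lowest (-2.79) and GATA3 is the only gene left of 0. Without YL2 the Yorkshire difference was 0.00 for GATA3, -0.17 for GNLY and -0.44 for KLRB1.

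The interaction, that is the altitude difference of Tibetan pigs minus that of Yorkshire pigs, had a median of -1.18 over the 22 genes against -0.01 over all genes. No gene was called by limma (0 of 22 against 0.0336% of all genes), and 15 (68.2%) were below 0 at an unadjusted p under 0.05, against 7.16% of all genes. Without the genes that passed through YH alone, these were 12 of 19 (63.2%) against 6.97%. After scaling to equal FPKM sums the median was -0.73 against -0.26 over all genes, and 2 of 22 were below 0 at that level against 1.97%. For 11 of the 22 genes both TH libraries were below both TL libraries and both YH libraries above both YL libraries, against 7.28% of all genes. Without the genes that passed through YH alone, this held for 10 of 19 (52.6%) against 7.2%. Averaged over altitudes, 17 of the 22 genes (77.3%) were lower in Tibetan than in Yorkshire pigs at that level against 5.92% of all genes, and 0 were called against 0.0504%. Leaving out the genes that passed through YH alone, 15 of 19 (78.9%) were lower at that level against 5.74%. After scaling to equal FPKM sums, 14 of the 22 were lower at that level against 7.67%, with a median of -0.53 against -0.39 over all genes. Averaged over breeds, 2 (9.09%) differed in either direction between highland and lowland against 7.22%, and 0 were called against 0.0336%. Without YL2 the medians of the interaction, of breed and of altitude were -1.26, -0.61 and 0.20.

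Most of the tested T and NK cell genes varied together across the 8 libraries. As a description over 8 libraries that share 4 groups and their depths, the Pearson correlation of log2(FPKM + 1) with the mean of the other tested T and NK cell genes was 0.99 for CD2, 0.97 for CD5 and CD3D, 0.96 for TBX21 and 0.95 for CD3E, CD8A, LCK and CD6. It was lower for GNLY (0.70), CD4 (0.62), KLRB1 (0.55) and LAT (0.48). GATA3 stood at 0.36 and at 0.80 without YL2. The B cell genes CD22 (0.30) and CD79A (-0.18) were the least alike.

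A further list of 70 lymphocyte genes, had 58 in the table and 25 tested. In TH vs. YH, 22 of the 25 were lower and 12 were so at an unadjusted p under 0.05, with a median of -0.71, and 0 were called. CST7, SIT1, CD244, SLAMF6, SLAMF7 and CD38 reached 1 FPKM in the YH libraries alone and therefore had to be high there, and all 6 are among the 12. Without them, 16 of 19 were lower, 6 of them at that level (31.6%, against 8.18% of all genes), with a median of -0.54. In YH vs. YL, 20 of the 25 were higher, 10 of them at that level, with a median of 0.63. Without the 6 genes, 14 of 19 were higher, 4 of them at that level (21.1%, against 4.12% of all genes), with a median of 0.39. Between TL and YL 0 of the 25 passed it. Named after their values were seen, the genes CST7, which encodes a cystatin of cytotoxic lymphocytes (0.0985 and 0.101 FPKM in TH, 2.82 and 2.45 in YH, limma adjusted p = 0.0574) and CTSW, which encodes their cathepsin W (2.92 and 1.71 in TH, 9.18 and 11.0 in YH, limma adjusted p = 0.0897) had the largest differences, -1.72 and -1.76, and CST7 passed through YH alone. IGJ, the joining chain of antibodies made by plasma cells, was highest in YL2 (13.5 FPKM).

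Markers of other cells moved with part of these results. Of 10 markers of all leukocytes, 9 were in the table and tested, and they summed to 44.1 and 54.6 FPKM in TH1 and TH2, 47.6 and 56.2 in TL1 and TL2, 87.6 and 106 in YH1 and YH2 and 40.3 and 47.4 in YL1 and YL2, with YH highest and TH within the range of the lowland groups. All 9 were lower in TH than in YH, 7 of them at an unadjusted p under 0.05 (median -1.09), against 8.47% of all genes. In YH vs. YL all 9 were higher, 7 of them at that level against 4.39%, with a median of 1.07 beside 0.79 for the lymphocyte genes. In the interaction all 9 were below 0, 6 of them at that level against 7.16%, with a median of -1.02 beside -1.18. PTPRC (CD45), the surface phosphatase of leukocytes, named after its values were seen, was at 1.29 and 1.41 FPKM in TH1 and TH2 and 6.10 and 6.19 in YH1 and YH2 (log2 difference -1.60, limma adjusted p = 0.0601). Markers of myeloid cells, 13 of 15 in the table, summed to 62.6 and 88.2 FPKM in TH1 and TH2, 135 and 137 in TL1 and TL2, 138 and 167 in YH1 and YH2 and 134 and 87.4 in YL1 and YL2. Of the 11 tested, 8 were lower in TH than in YH, 6 of them at that level, and 3 were higher (median -0.63). Against TL, 7 of the 11 were higher in TH and 4 lower (median 0.21), with 1 and 3 of them at that level. The lower sums of TH beside TL rest on C1QC and C1QA, the most abundant of these markers (log2 differences -2.05 and -2.38 for TH vs. TL).

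Of 6 platelet markers 5 were in the table and they summed to 6.37 and 3.22 FPKM in TH1 and TH2, 23.5 and 43.4 in TL1 and TL2, 47.1 and 69.3 in YH1 and YH2 and 77.4 and 8.96 in YL1 and YL2. TH was below all other libraries in this sum. Most of it was GP1BB, at 5.46 and 2.57 FPKM in TH1 and TH2, the single one tested (log2 differences -3.59 for TH vs. YH and -2.75 for TH vs. TL, limma adjusted p = 0.176 and 0.347). The platelet markers PF4, PPBP and TREML1 were at 0 to 0.0446 FPKM in every library, and ITGA2B, not tested, was higher in TH (0.883 and 0.656 FPKM) than in YH (0.405 and 0.472).

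Markers of red blood cells went the other way in TH vs. YH and the same way in YH vs. YL. They summed to 3115 and 1635 FPKM in TH1 and TH2, 1240 and 1409 in TL1 and TL2, 1069 and 1033 in YH1 and YH2 and 635 and 533 in YL1 and YL2. At an unadjusted p under 0.05, 4 of the 5 tested were higher in TH than in YH, against 7.71% of all genes. In YH vs. YL 4 of the 5 were higher, 2 of them at that level against 4.39%, with a median of 0.78. Of 9 endothelial markers 7 were in the table and tested, and they summed to 207 and 203 FPKM in TH1 and TH2, 178 and 188 in TL1 and TL2, 171 and 184 in YH1 and YH2 and 128 and 104 in YL1 and YL2. The TH libraries differed within this sum, of which PECAM1 (96.8 and 84.5 FPKM in TH1 and TH2) was the largest part. VWF (1.07 and 22.8), TEK, ESAM and KDR were lower in TH1 than in TH2. EGFL7 (59.9 and 30.3) and PECAM1 were higher in TH1, and CLDN5 was near equal. In YH vs. YL all 7 were higher, 1 of them at that level, with a median of 0.56, and the libraries of 6 (85.7%) did not overlap, against 21.9% of all genes. In TH vs. YH 4 were lower and 3 higher, with a median of -0.49. The thymus genes DNTT and AIRE summed to at most 0.763 FPKM, and the lymph node chemokines CCL21 and CCL19 with MADCAM1 and CXCL13 to 21.4 to 47.2 FPKM, with 0 of 3 tested at that level in TH vs. YH. Of 11 cardiac muscle markers 9 were in the table and tested. In TH vs. TL 7 of the 9 were lower and 2 higher, with a median of -0.45 beside -0.32 for the lymphocyte genes. The libraries of 6 (66.7%) did not overlap with TH lower, against 24.5% of all genes. In the interaction 8 of the 9 were below 0 and 1 above, with a median of -0.88. The part of these other cells in the lymphocyte values was not tested.

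**Figure D5:**
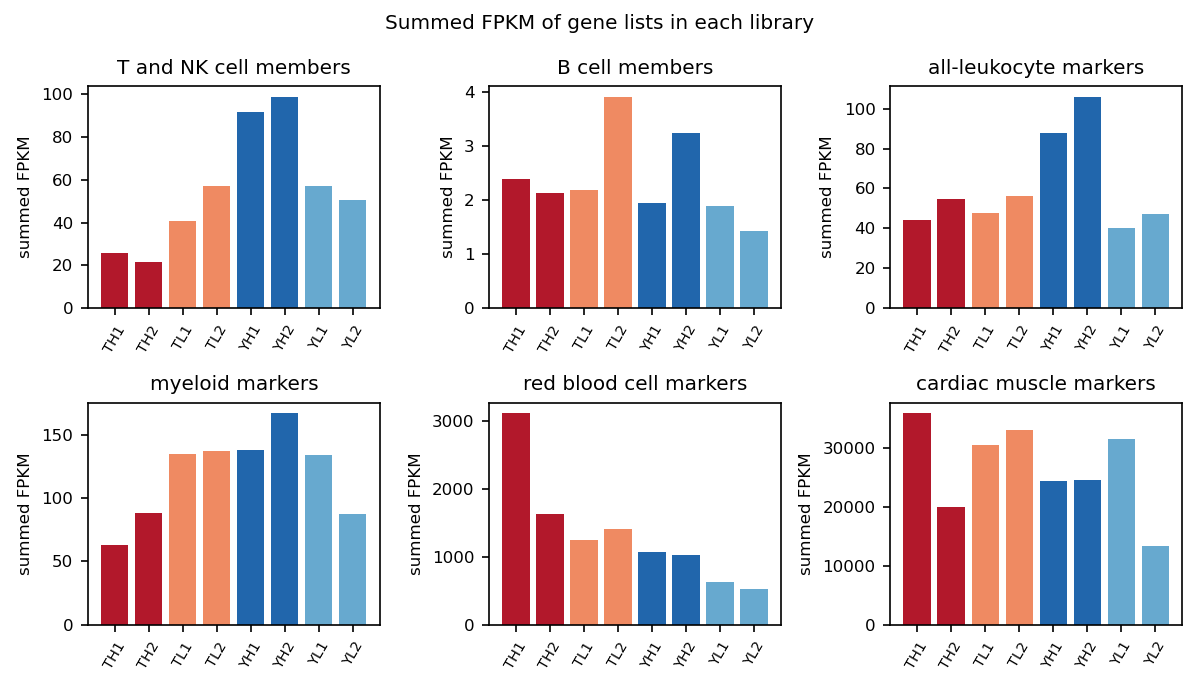
Summed FPKM (vertical axes, from 0) in each of the 8 libraries for the T and NK cell genes, the B cell genes, and markers of all leukocytes, myeloid cells, red blood cells and cardiac muscle, as bars coloured by group. The T and NK cell genes and the leukocyte markers are highest in YH1 and YH2, and the red blood cell markers are highest in TH1.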

How the data were processed

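RNA-seq of heart was analysed in 8 libraries. The authors aligned reads to Sscrofa10.2 with TopHat2 2.0.9 and Bowtie 0.12.5 and computed FPKM with Cufflinks, and DESeq 1.10.1 served for their own calls. They deposited FPKM and, for each library, a scaled read signal that is not a whole number. This signal divided by its most common step gave whole numbers for 99.8% of values up to 20 steps, within 0.02, and served for depth and reads. Group means and fold ratios of the authors were not used.

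Members were found by gene name. limma 3.58.1 in R 4.3.3 was fitted with a term per group and a trend to log2(FPKM + 1) of all 8 libraries and the 11913 genes that reached 1 FPKM in 2 or more libraries, and p-values were adjusted over all of these by Benjamini-Hochberg. The prior had 2.83 degrees of freedom beside 4 residual ones. The fit was tested on simulated data. The members and lists were chosen with earlier results of these data known. Named genes were the 2 most abundant of each role, up to 4 with the largest difference in each direction between 2 groups that did not overlap, and any called gene. Other members given with values, IL2RB, CD247 and CD5 included, were named after their values were seen. Alternatives were pseudocount, filter, scaling, trend, replicate block, libraries compared, threshold and each library left out. An analysis of log2 scaled reads, with and without YL2, was added after seeing the data. The description labels of YL1 and YL2 name the file of TL, against their titles and breed. They were taken as YL by title and breed, and every comparison with YL rests on this.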

Additional observations from a re-analysis of the deposited data

Results flagged for a closer look

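For 11 genes the altitude difference had opposite signs in the 2 breeds in every library, with TH below TL and YH above YL. The interaction log2 differences were -1.94 for CD2, -1.99 for GZMA, -1.75 for CD3E, -1.51 for CD8A and CD6, -1.46 for TBX21, -1.43 for CD3D, -1.22 for IL2RG, -1.20 for CD5, -1.17 for LCK and -1.07 for CD4. None passed after adjustment (limma adjusted p = 0.201 to 0.347). This pattern was seen in 50% of the 22 tested genes and in 867 of the 11913 genes tested (7.28%). CD3D passed the minimum through YH alone. CD5 and CD6 are listed at 1 position, and whether they share reads was not tested.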

How the results depend on the processing

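The count of called lymphocyte genes was 0 as reported and in the alternatives at the same threshold, and a count at its floor says nothing of stability. At an adjusted p under 0.05 the count in TH vs. YH was 1 (CD2, log2 difference -1.99, limma adjusted p = 0.0392). It was 6 genes without TH2, YL1 or YL2 (against 4.21%, 1.31% and 1.32% of all genes), 14 of 31 tested on log2 scaled reads without YL2 (against 2.62%), 2 with a pseudocount of 0.1 and 1 after scaling to equal FPKM sums (GNLY). It was 0 without TH1, TL1, TL2, YH1 or YH2, with median-ratio scaling, the replicate block, the libraries compared alone, no filter, a mean of at least 0.5 FPKM, and log2 scaled reads of all libraries. In TH vs. TL, GNLY was at that level without YL1 or YL2. Without YL1, 9 genes were at it for breed over altitudes (against 7.90% of all genes), 2 for the interaction (6.76%) and GATA3 in TL vs. YL, YH vs. YL and altitude over breeds (9.29%, 8.46% and 5.36%). The median of TL vs. YL took both signs, and the medians of the other 6 comparisons kept theirs. With a pseudocount of 0.1 the medians were -2.45 (TH vs. YH), -0.74 (TH vs. TL), 1.23 (YH vs. YL), -1.13 (breed over altitudes) and -2.03 (interaction). With no filter on low values they were -0.53, 0.35 (YH vs. YL), -0.28 (breed), 0.05 (altitude over breeds) and -0.50 (interaction). Scaled to equal FPKM sums they were -0.87 (all genes -0.50), -0.26 (TH vs. TL; all genes -0.27), 0.46 (YH vs. YL; all genes 0.01) and -0.73 (interaction; all genes -0.26). On log2 scaled reads, chosen after seeing the data, they were -2.21, -0.22 (TL vs. YL), -0.91 (TH vs. TL), 1.06 (YH vs. YL), -1.32 (breed) and -2.04 (interaction), and without YL2 -2.21 (TH vs. YH), 0.04 (TL vs. YL), -0.91 (TH vs. TL), 1.01 (YH vs. YL), -1.09 (breed) and -2.07 (interaction). The pseudocount sets how strongly low genes are compressed, and without the filter 46 rows enter; the cause of the other shifts was not tested. Leaving out 1 library gave -1.36 to -1.07 (TH vs. YH), -0.16 to 0.14 (TL vs. YL), -0.42 to -0.25 (TH vs. TL), 0.67 to 0.92 (YH vs. YL), -0.71 to -0.57 (breed), 0.13 to 0.26 (altitude) and -1.26 to -1.02 (interaction).

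Replicate numbers did not pair the libraries: same-numbered libraries correlated at -0.08 to 0.12 in their deviations. With a replicate block the medians were as reported, -1.28 in TH vs. YH, 0 members were called, and CD2 went from an adjusted p of 0.0392 to 0.0737 (limma). Count tests were not run, since a few values of the scaled read signal did not come out as whole reads. Low reads limit all untested genes and, with at most 7 reads in at least 1 library each, the tested genes CD3D, CD3G, CD5, CD6, GZMA, KLRK1, SKAP1 and TBX21.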
